A study of Rattus norvegicus with 14 samples.

Results

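Ribosome biogenesis factors are the proteins that transcribe, fold, modify, cut and assemble ribosomal RNA before it becomes part of a ribosome. They were taken here as a list of 40 gene symbols grouped by function. No measured value enters the rule, but the list was chosen with earlier results of these data known. Of the 40, 38 had a value among the 17312 genes of the deposited tables, and Utp4 and Rrp1b were not analysed here. The test reached 36 of the 38, among 10133 genes tested. RNA polymerase I copies the ribosomal DNA in the nucleolus into a long precursor, small nucleolar ribonucleoproteins guide its methylation and pseudouridylation, and large processome assemblies cut it and add ribosomal proteins to make the small and the large subunit. Growth factors are known to raise this output in cells leaving quiescence, and the genes are often described as targets of the transcription factor Myc.

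The cells were rat aortic smooth muscle cells from a commercial supplier, kept in serum-free medium for 24 h before any treatment. Platelet-derived growth factor (PDGF), a mitogen for smooth muscle, was given at 925 ng/ml, as the labels state the dose. Where JQ1 was used, it was given at 500 nM for 3 h before PDGF. JQ1 is a small-molecule bromodomain inhibitor. The 14 libraries of polyadenylated RNA fell into 5 groups: unstimulated cells at 0 h (n = 2), PDGF at 2 h (n = 3), JQ1 plus PDGF at 2 h (n = 3), PDGF at 24 h (n = 3) and JQ1 plus PDGF at 24 h (n = 3). Cells with JQ1 alone, and unstimulated cells kept for 2 h or 24 h, were not analysed here, so PDGF and time in culture cannot be told apart in the comparisons with 0 h. No label says that libraries of a group came from separate cultures, so p-values measure only the spread between these libraries, which may be technical. The letters in the sample titles differ between libraries with and without JQ1, and their meaning and the effect of JQ1 cannot be told apart.

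Levels are normalised FPKM, fragments scaled by transcript length and sequencing total, which the authors then adjusted for each library, and they can be compared between genes per length. Differences between groups are given in log2 units (a pseudocount of 1 was added to the FPKM) ± SE, from limma, and p-values were adjusted over all genes tested by the Benjamini-Hochberg method. A gene was called where that p was under 0.05. Counts of called members are also given on a median-centred scale, on which the unnormalised FPKM were divided by size factors. Counts of library ranges that did not overlap, and counts by role where no scale is named, are on the normalised scale. The scales differ by a shift that touches nearly all genes: on the normalised scale the median gene moved by 0.41 at 24 h of PDGF against 0 h, by 0.39 at 24 h against 2 h of PDGF, by -0.29 with JQ1 at 2 h and by -0.48 with JQ1 at 24 h. As in any bulk sample, fewer cells of a type and less RNA per cell cannot be told apart. Depth is unknown, and 9901 to 11503 genes were above 0 in a library. The smooth muscle genes Acta2 and Tagln were abundant, and 7 smooth muscle markers summed to 9965 to 10360 unnormalised FPKM in unstimulated cells, 10820 to 11460 with PDGF at 2 h, 16660 to 16970 with JQ1 plus PDGF at 2 h, 1256 to 1498 with PDGF at 24 h and 384.2 to 449.2 with JQ1 plus PDGF at 24 h. Markers of other cell types were near 0 for endothelium and present for the other lists. The 5 endothelial markers summed to at most 1.67 unnormalised FPKM in any library, with Cdh5 at 0 in all 14. The 4 leukocyte markers summed to 6.54 to 52.9, with Ptprc at 0 in all 14 libraries and Lyz2 in 13, and Cd14 and Cd68 present. The 5 adventitial fibroblast markers summed to 160.3 to 162.7 in unstimulated cells, 131.6 to 139.6 with PDGF at 2 h, 122.1 to 136.0 with JQ1 plus PDGF at 2 h, 103.0 to 122.7 with PDGF at 24 h and 11.6 to 13.3 with JQ1 plus PDGF at 24 h. Of these 5, Lum was abundant and Dpt was at 0 in all 14 libraries. The part of these cell types in the members' values was not tested.

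**Figure D1:**
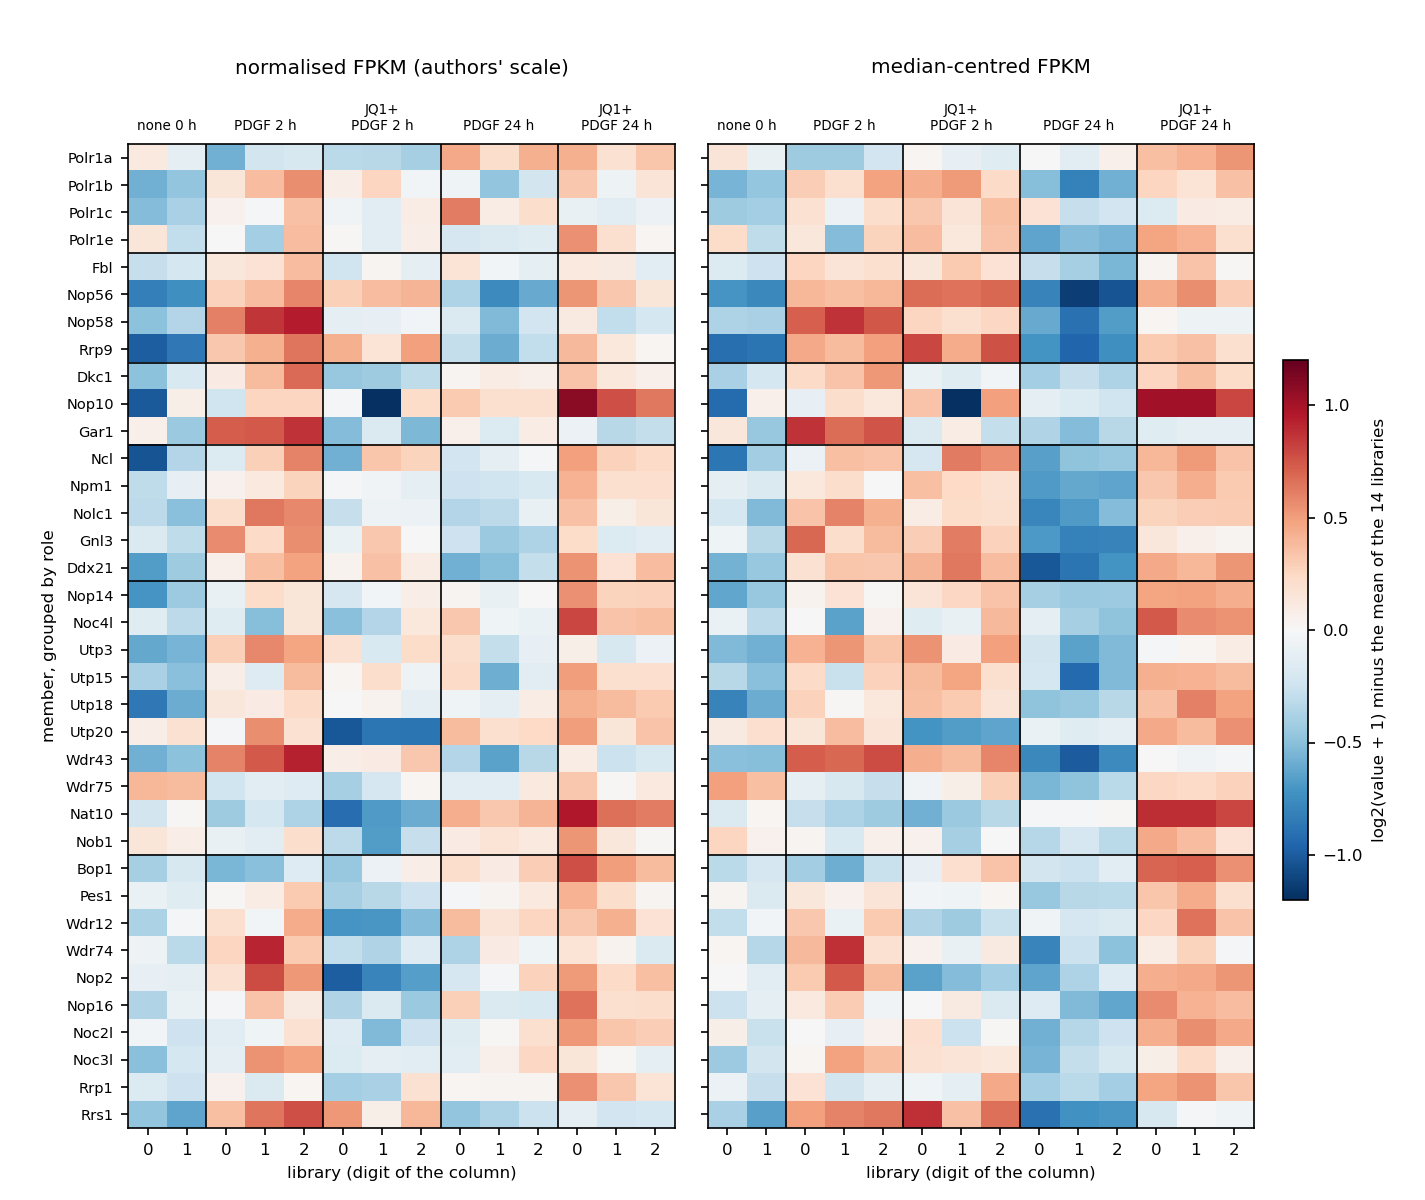
Each column is 1 library and each line 1 of the 36 members, grouped by role; the colour is log2(value + 1) minus the mean of that gene over the 14 libraries, on the normalised scale (left) and the median-centred scale (right). The libraries of PDGF at 2 h and of JQ1 plus PDGF at 24 h are mostly red on both scales. Those of PDGF at 24 h are near their means on the left and blue on the right. With JQ1 plus PDGF at 2 h the median member is at -0.22, -0.13 and -0.05 (left) and 0.15, 0.14 and 0.21 (right).

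Levels spanned a wide range. Npm1, which encodes nucleophosmin, a histone and ribosomal protein chaperone of the nucleolus, had the highest mean over the 14 libraries, at 721.5 normalised FPKM. Ncl, which encodes nucleolin, a nucleolar RNA-binding protein, followed at 407.9. The box C/D proteins Nop58 and Nop56, the scaffold of the methylation-guiding particles, stood at 101.7 and 100.6, and Fbl, the fibrillarin methyltransferase of the same particles, at 89.8. At the lower end were Polr1a, the largest subunit of RNA polymerase I, at 8.50 and Utp20, a small subunit processome component, at 7.67. The lowest value of any tested member in any library was 3.05, in Utp20, so all 36 lay above the filter of 1 in every library. Nhp2, a box H/ACA core protein, and Ebna1bp2, a large subunit factor, were listed at 0 in 13 of 14 libraries before normalisation and were not tested. The median member mean was 27.7 in unstimulated cells, 43.5 with PDGF at 2 h, 32.9 with JQ1 plus PDGF at 2 h, 35.5 with PDGF at 24 h and 40.5 with JQ1 plus PDGF at 24 h. Within a group the median coefficient of variation of the members was 8.42% to 13.5%. Among tested members Nop10, a box H/ACA core protein, varied most, with 73.3% in JQ1 plus PDGF at 2 h and 52.5% at 0 h, and Ncl reached 33.2% at 0 h.

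The median over the members was taken in each library. Relative to each gene's own mean over all libraries, the median member was at -0.37 and -0.30 (log2) in the unstimulated libraries, where the median gene was at -0.06 and 0.02. With PDGF at 2 h it was at 0.05, 0.24 and 0.37, above the median gene at -0.13, 0.11 and 0.10. With JQ1 plus PDGF at 2 h it was at -0.22, -0.13 and -0.05, also above the median gene at -0.35, -0.22 and -0.25. With PDGF at 24 h it was at -0.03, -0.10 and 0.00, below the median gene at 0.46, 0.36 and 0.37. With JQ1 plus PDGF at 24 h it was at 0.42, 0.18 and 0.15, above the median gene at 0.06, -0.24 and -0.18. The members were therefore lowest against other genes with PDGF at 24 h and highest against them with JQ1 plus PDGF at 24 h.

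After 2 h of PDGF, most ribosome biogenesis factors were above their unstimulated levels. Of the 36, 21 rose (17.7% of all genes tested did) and 1 fell (12.7% of all genes), with a median log2 difference of 0.59 and a range from -0.57 to 1.38, against a median of 0.01 over all genes. After median-centring 21 rose and 2 fell, where 20.4% and 19.4% of all genes did, with a median of 0.54. The library ranges did not overlap for 24 members above and 2 below, against 26.4% and 24.1% of all genes. Without unstimulated library 0, which leaves a lone library at 0 h assumed to vary like the others, 13 members rose and 0 fell.

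The box C/D and U3 particle proteins rose as a group, 4 of 4, and so did the 5 abundant nucleolar proteins, Ncl, Npm1, Nolc1, Gnl3 and Ddx21. Rrp9, a U3-specific protein needed for the first cuts of the precursor, read 20.6 and 22.7 normalised FPKM in the unstimulated libraries and 52.7, 56.5 and 65.8 with PDGF at 2 h. It had the largest rise of the members, 1.38 ± 0.16 (limma, adjusted p = 7.1e-06), with every PDGF library above every unstimulated one. Nop58 went from 68.2 and 75.2 to 147, 175 and 186, a rise of 1.22 ± 0.15 (limma, adjusted p = 1.27e-05). Its partner Nop56 rose by 1.19 ± 0.14, from 54.8 ± 2.26 (SD, n = 2) to 127 ± 14.2 (SD, n = 3). In neither gene did the groups overlap. Fbl, the enzyme of the same particle, rose less, from 73.2 and 76.9 to 98.3, 101 and 115, by 0.47 ± 0.13 (limma, adjusted p = 0.0126), a call that was lost without either unstimulated library.

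Among the abundant nucleolar proteins, Ncl rose by 0.93 ± 0.26, Nolc1, a chaperone that links small nucleolar particles to the nucleolus, by 0.88 ± 0.15, and Ddx21, an RNA helicase, by 0.85 ± 0.16. Gnl3, the GTPase nucleostemin, rose by 0.69 ± 0.16. Npm1 read 577 and 668 and then 738, 773 and 857, a rise of 0.34 ± 0.12 that was the smallest among the members that passed (limma, adjusted p = 0.0409). Its call was lost in 11 of the 14 fits that left out 1 library. RefSeq annotates 20 pseudogenes of Npm1, 14 of Rrs1, 9 of Ddx21, 7 of Fbl, 6 of Pes1 and 5 of Ncl. It also lists 5 of Nhp2 and 4 each of Nop2 and Nop16, and 17 members have at least 1. Reads of 40 bases may be shared with such copies, so the levels of these 17 are uncertain.

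Of the 4 RNA polymerase I subunits, 2 rose: Polr1b, which forms the catalytic core with Polr1a, by 0.88 ± 0.20, and Polr1c, shared with polymerase III, by 0.58 ± 0.16. Polr1a had a difference of -0.33 ± 0.18 that did not pass on the normalised scale, while on the median-centred scale it fell by 0.39 (limma, adjusted p = 0.0342). Polr1e, a subunit of the polymerase's heterodimer, had a difference of 0.06 ± 0.22. In the box H/ACA group, Dkc1, the pseudouridine synthase dyskerin, rose by 0.73 ± 0.16 and its partner Gar1 by 0.97 ± 0.18. Nop10, another core protein, spread from 4.51 to 76.8 over the libraries, and its difference here, 0.56 ± 0.59, did not pass.

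Of 10 small subunit factors, 4 rose and 1 fell. Wdr43, a processome protein, read 21.7 and 23.2 at 0 h and 50.3, 55.6 and 63.2 after PDGF, a rise of 1.28 ± 0.15 (limma, adjusted p = 1.18e-05) without overlap. Utp3 rose by 1.03 ± 0.17, Utp18 by 0.88 ± 0.14 and Nop14 by 0.67 ± 0.15. Wdr75, another processome protein that is needed for polymerase I transcription, was the member that fell. It read 39.1 and 38.6 in unstimulated cells and 24.8, 26.6 and 26.2 with PDGF, a difference of -0.57 ± 0.15 (limma, adjusted p = 0.00939). The unstimulated libraries were above all others of the series, and leaving out either of them ended the call.

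Of 10 large subunit factors, 4 rose and none fell: Rrs1, which brings the 5S particle into the pre-60S subunit, by 1.14 ± 0.16, Wdr74 by 0.69 ± 0.20, Noc3l by 0.66 ± 0.19 and Nop2, a methyltransferase of 28S ribosomal RNA, by 0.60 ± 0.18. The PeBoW complex acts in large subunit maturation, and none of its 3 members passed: Pes1 had 0.25 ± 0.13, Wdr12 0.40 ± 0.16 and Bop1 -0.11 ± 0.18. For Bop1 the 95% interval of -0.50 to 0.28 excludes a rise of the size seen in Rrs1.

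**Figure D2:**
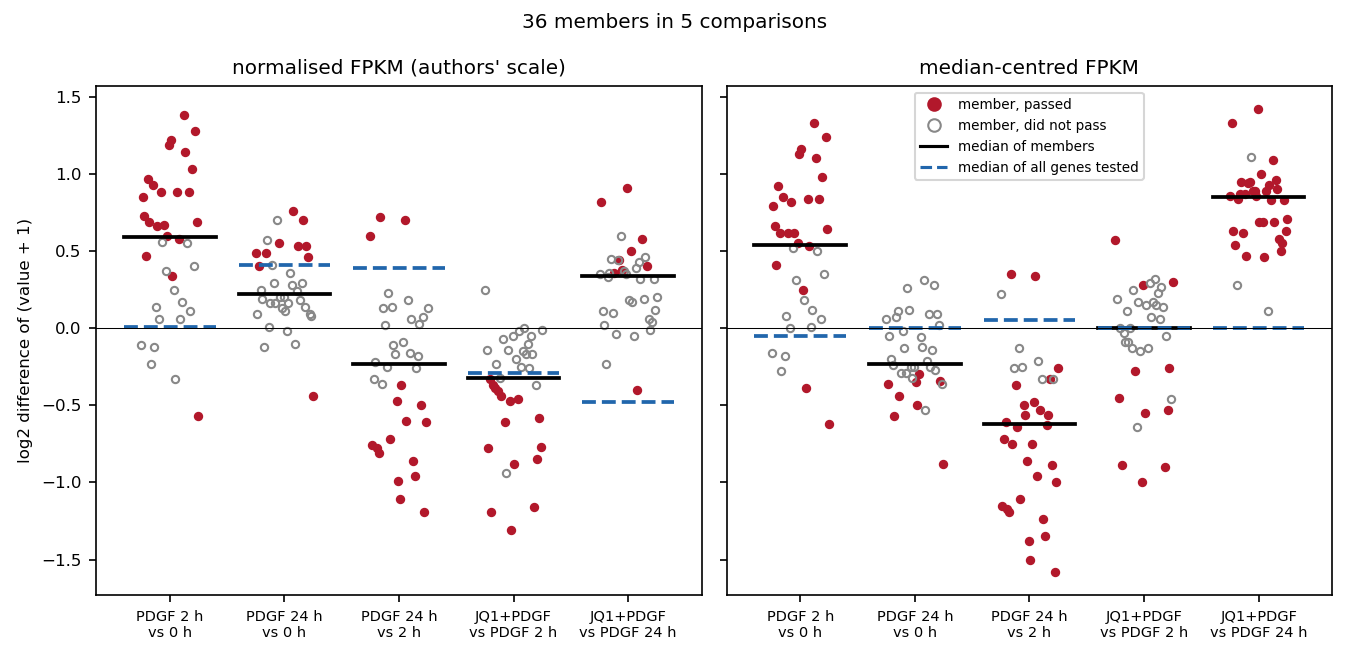
Each point is the log2 difference of 1 of the 36 members in 1 of 5 comparisons, filled where it passed, on the normalised scale (left) and the median-centred scale (right); black lines are medians of the members and dashed blue lines medians of all genes tested. The members lie above the other genes with PDGF at 2 h on both scales (median 0.59 against 0.01 on the left), and with JQ1 at 24 h their median of 0.34 lies above -0.48.

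By 24 h of PDGF most of these rises were no longer seen, while the median gene stood above its unstimulated level. Against 0 h, 9 members were higher (37.7% of all genes tested) and 1 was lower (4.85%), with a median of 0.22, below the 0.41 of all genes. After median-centring 0 were higher and 8 lower, where 14.8% and 13.4% of all genes were, so the direction of the members in this comparison depends on the scale. At an unadjusted p under 0.05 (limma), 2 were higher and 12 lower on that scale. The ranges did not overlap for 19 members above and 1 below, against 61.1% and 9.14% of all genes. Without unstimulated library 0, 2 members were higher and 0 lower, and without both PDGF 2 h library 1 and PDGF 24 h library 0, a pair set apart by earlier results of these data, 4 were higher and 0 lower.

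Polr1c read 30.1 and 33.1 at 0 h and 67.5, 46.5 and 50.6 after 24 h, a difference of 0.76 ± 0.16 (limma, adjusted p = 0.00145) that was 0.31 on the median-centred scale and did not pass there. Library 0 was the highest of the 3. Utp18, a processome protein, rose by 0.70 ± 0.14 from 9.22 and 11.3 to 16.8, 16.2 and 18.6, and Nop14, a small subunit factor, by 0.55 ± 0.15 from 21.3 and 25.9 to 36.2, 33.2 and 35.6. All libraries at 24 h were above those at 0 h in these genes, and neither call held on the median-centred scale. Rrp9 and Utp3 were higher by 0.53 each, Nat10, an RNA acetyltransferase of 18S ribosomal RNA, and Bop1 by 0.49 each, Wdr12 by 0.46 and Dkc1 by 0.40. None of these 6 passed on the median-centred scale, where Dkc1 moved to -0.05. Of the 14 fits that left out 1 library, Dkc1 lost its call in 10 and Wdr12 in 3 (without unstimulated library 0, PDGF 24 h library 0 or PDGF 24 h library 2). Nop14 lost its call without unstimulated library 0. Wdr75 stayed below 0 h, at 26.8, 26.7 and 31.9, with a difference of -0.44 ± 0.15 (limma, adjusted p = 0.0261) and of -0.88 on the median-centred scale. Its call on the normalised scale was lost without either unstimulated library and without PDGF 24 h library 0 or 1. The 5 abundant nucleolar proteins had no call on the normalised scale, and on the median-centred scale Npm1, Gnl3 and Ddx21 were lower than at 0 h.

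Set directly against 2 h of PDGF, 24 h of PDGF had 3 members higher (44.5% of all genes tested) and 14 lower (11.8%), with a median of -0.23 against 0.39. After median-centring 2 were higher and 27 lower, where 26.6% and 25.8% of all genes were. The library ranges did not overlap for 4 members above and 15 below, against 46.7% and 12.9% of all genes. This comparison shares its 2 h libraries with that of PDGF at 2 h against 0 h, so a high value at 2 h enters both. Wdr43 fell from 50.3, 55.6 and 63.2 to 25.7, 20.7 and 26.0, by 1.19 with an SE of 0.14 (limma, adjusted p = 5.26e-06). Nop58 fell to 85.4, 66.2 and 81.9, a difference of -1.11 ± 0.13, and Nop56 from 115, 123 and 143 to 73.4, 55.4 and 62.2, a difference of -0.99 ± 0.13. In each of the 3 genes all libraries at 24 h were under all at 2 h, and the differences from 0 h were 0.09, 0.11 and 0.20, none past the threshold on the normalised scale. Rrs1 (-0.96 ± 0.14) and Rrp9 (-0.86 ± 0.14) also fell, as did Gnl3, Gar1, Ddx21, Nolc1, Wdr74, Polr1b, Utp3, Nop2 and Npm1, by 0.81 to 0.37.

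The 3 members that rose between 2 h and 24 h of PDGF were not among those that rose at 2 h. Nat10 read 8.44, 9.98 and 8.81 at 2 h and 16.1, 14.9 and 15.8 at 24 h, a difference of 0.72 ± 0.15 (limma, adjusted p = 0.000992). Polr1a went from 5.21, 6.95 and 7.08 to 11.7, 9.74 and 11.4, a difference of 0.70 ± 0.16 (limma, adjusted p = 0.00206). Bop1 went from 14.2, 14.8 and 19.0 to 24.8, 22.9 and 26.3, a difference of 0.60 ± 0.16 that became 0.22 and did not pass on the median-centred scale. The groups did not overlap in these genes, and Nat10 and Polr1a also passed on the median-centred scale.

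**Figure D3:**
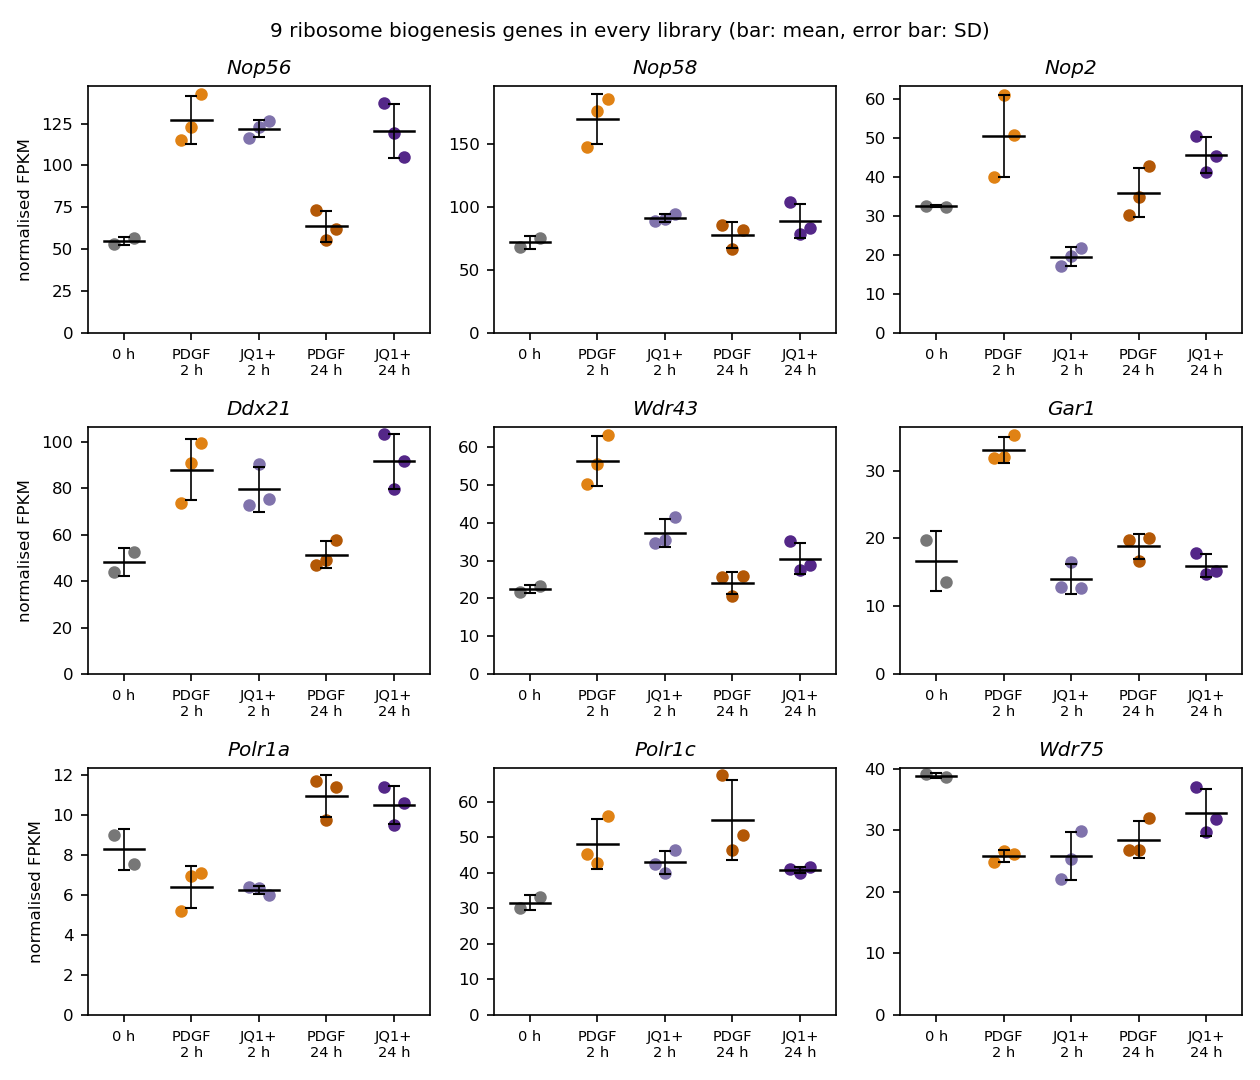
Normalised FPKM of 9 members in every library, with the group mean as a bar and the SD as an error bar; axes start at 0, and JQ1+ stands for JQ1 plus PDGF. Nop56, Nop58, Ddx21, Wdr43 and Gar1 are high in the 3 PDGF 2 h libraries. Nop56 and Ddx21 are also high in both JQ1 groups (means 121.9 and 79.5 at 2 h, 120.5 and 91.6 at 24 h). Nop2 is lowest in the 3 JQ1 libraries at 2 h (17.2 to 21.8), and Wdr75 is highest at 0 h.

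With JQ1 before PDGF, 16 of the 36 members were lower at 2 h than with PDGF alone (34% of all genes tested) and 0 were higher (7.24%). The median of -0.32 was near that of all genes, -0.29, and the members ranged from -1.31 to 0.25. At an unadjusted p under 0.05 (limma), 18 were lower and still 0 higher. On the median-centred scale 8 were lower and 3 higher, where 21.5% and 20.1% of all genes were, with medians of 0.00 for the members and for all genes. The median member thus moved like the median gene, and single members lay far from it on both sides. The ranges did not overlap for 19 members below and 0 above, against 38.1% and 8.99% of all genes. This comparison shares the 3 PDGF 2 h libraries with that of PDGF at 2 h against 0 h.

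Nop2, the 28S methyltransferase, was the member with the largest difference. It read 39.9, 61.0 and 50.7 with PDGF and 17.2, 19.9 and 21.8 with JQ1 plus PDGF, a fall of 1.31 with an SE of 0.16 (limma, adjusted p = 1.84e-05) that also passed on the median-centred scale. All 3 JQ1 libraries were below the unstimulated ones, at 32.7 and 32.4. Gar1, of the box H/ACA particle, went from 31.8, 32.0 and 35.2 to 12.8, 16.6 and 12.6, a difference of -1.19 ± 0.16 (limma, adjusted p = 3.76e-05), close to the unstimulated libraries at 19.7 and 13.5. Utp20 went from 7.10, 11.1 and 8.32 to 3.05, 3.49 and 3.46, a difference of -1.16 ± 0.18 (limma, adjusted p = 0.000124). PDGF alone had not moved Utp20 past the threshold (0.11 ± 0.20, 95% interval -0.31 to 0.54), and its JQ1 libraries at 2 h were the lowest of the series.

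Proteins of the same particle took different values. Nop58 read 88.9, 90.0 and 94.2 with JQ1, a difference of -0.88 ± 0.13, while its partner Nop56 read 116, 123 and 126, a difference of -0.05 ± 0.13 with a 95% interval of -0.33 to 0.22, and Rrp9 had -0.10 ± 0.14. On the median-centred scale Nop58 was lower by 0.55 and Nop56 higher by 0.28, both past the threshold. Fbl fell by 0.33 to 75.2, 91.2 and 82.9 (limma, adjusted p = 0.0318), and its difference was 0.00 on the median-centred scale. Its call was lost without PDGF 2 h library 2 and without JQ1 plus PDGF 2 h library 0 or 2. Dkc1 went from 65.9, 80.2 and 98.9 to 44.7, 45.3 and 49.5, a difference of -0.78 ± 0.14, within the unstimulated range of 43.3 and 53.8.

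Of the other groups, no polymerase I subunit was called on either scale, with differences from -0.25 to 0.00. Among the abundant nucleolar proteins Nolc1 (-0.61 ± 0.13) and Gnl3 (-0.37 ± 0.14) fell. Ddx21, Ncl and Npm1 had differences of -0.14, -0.23 and -0.20 that did not pass. Small subunit factors that fell, besides Utp20, were Wdr43 (-0.58 ± 0.14), Nob1, the endonuclease that makes the 3′ end of 18S ribosomal RNA (-0.41 ± 0.15), and Nat10, from 8.44, 9.98 and 8.81 to 5.74, 6.91 and 7.39 (-0.39 ± 0.15, limma, adjusted p = 0.0495). Of the 14 fits that left out 1 library, Gnl3 lost its call in 10 and Nat10 in 12. In the large subunit group Nop2, Wdr12 (-0.85 ± 0.14), Wdr74 (-0.77 ± 0.17), Nop16 (-0.47 ± 0.16), Pes1 (-0.46 ± 0.12) and Noc3l (-0.44 ± 0.17) fell. Bop1, the PeBoW partner of Pes1 and Wdr12, had 0.25 ± 0.16, and on the median-centred scale it was higher by 0.57. The 8 members that fell on both scales were Nop58, Dkc1, Gar1, Nolc1, Utp20, Wdr43, Wdr12 and Nop2.

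The promoters of the members were searched for CACGTG, the palindromic E-box that Myc with Max and several other factors of its class bind, in 300 bases from 250 before to 50 after the annotated start (RefSeq, build GRCr8). A promoter was found for 35 of the 38 members, and 12 of these 35 (34.3%) held at least 1 copy, against 6.42% of all 33469 promoters of the same length, 7.02% of those of protein-coding genes, 24.5% of 106 promoters of other ribosome biogenesis genes and 7.81% of 64 of ribosomal protein genes. The motif reads the same on both strands. Of the 11 tested members with the E-box 8 fell with JQ1 at 2 h, and of the 22 without it 7 did, with median differences of -0.39 and -0.24, while 34% of all genes tested fell. The tested members with the E-box that did not pass were Utp18 (-0.17), Rrp1 (-0.17) and Wdr75 (-0.01). On the median-centred scale 3 of 11 and 4 of 22 fell, with medians of -0.09 and 0.09, and 21.5% of all genes did. These are descriptions of letters in a window and carry no test, and of the 3 members that fell most with JQ1 at 2 h, Nop2 and Utp20 held the E-box and Gar1 did not. The 8 windows of 30 bases around the E-box (capitals) of members that fell on the normalised scale, 5′ to 3′ on the strand of the gene, are shown so that the flanking bases can be compared.
Dkc1: agcgtcccggcgCACGTGcgggccccaccc
Fbl: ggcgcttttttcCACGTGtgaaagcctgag
Gnl3: agttccagttcgCACGTGgcgcccgagacg
Nat10: tcagcgctagccCACGTGctgccacttgag
Noc3l: ttgagctctgggCACGTGtgtgtttcctac
Nop2: tgaactcttccccaagtgCACGTGgagcgg
Pes1: ccctaagcggggCACGTGcggtaggaagta
Utp20: cagcactagctaCACGTGagaaaaagcaga

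On GRCr8 these windows lie at chrX:157751455-157751484 (plus strand) for Dkc1, chr1:92597416-92597445 (plus strand) for Fbl, chr16:6219790-6219819 (minus strand) for Gnl3, chr3:110604801-110604830 (minus strand) for Nat10, chr1:245997673-245997702 (minus strand) for Noc3l, chr4:159618986-159619015 (plus strand) for Nop2, chr14:83074284-83074313 (plus strand) for Pes1 and chr7:25102959-25102988 (minus strand) for Utp20. The expression values were made on another build, rn6, and only gene symbols join the sources. The E-box begins upstream of the start in Utp20 (-127), Dkc1 (-184), Pes1 (-50) and Gnl3 (-25), and within the first 50 transcribed bases in Nop2, Fbl, Noc3l and Nat10. Utp18 was the member with 2 copies, at -90 and 4. It rose with PDGF at 2 h and its difference with JQ1 at 2 h was -0.17 ± 0.13 (limma, adjusted p = 0.287), so it shows the E-box in a member that did not pass. Its 250 bases before the start, at chr10:79335758-79336007 (minus strand), with the first E-box in capitals, read as follows.
Utp18: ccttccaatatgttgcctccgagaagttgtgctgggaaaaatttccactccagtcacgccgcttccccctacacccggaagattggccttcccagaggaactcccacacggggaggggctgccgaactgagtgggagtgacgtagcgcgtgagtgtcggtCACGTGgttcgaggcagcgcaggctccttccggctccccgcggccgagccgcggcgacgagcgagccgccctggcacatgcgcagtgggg

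At 24 h most members were above the level of PDGF alone, 31 of 36 with a difference over 0, while most genes were below it. With JQ1 plus PDGF, 8 of 36 were higher than with PDGF alone (4.61% of all genes tested) and 1 was lower (48.5%). Their median was 0.34, with a range from -0.40 to 0.91, while the median gene was at -0.48. On the median-centred scale 33 were higher and 0 lower (limma, 33 and 0 also at an unadjusted p under 0.05), where 23.1% and 25.8% of all genes were, with a median of 0.85. The ranges did not overlap for 18 members above and 1 below, against 6.99% and 57.4% of all genes. The direction against 0 therefore holds on both scales for the 8 called members, and how many pass depends on the scale. A fit to the compared groups alone called 14 higher, and without PDGF 24 h library 1 the count was 5. In the same comparison, where 48.5% of all genes were lower, 4 adventitial fibroblast markers and all 7 smooth muscle markers were called lower. The fifth fibroblast marker was at 0, and the lower sums of both lists are given above. Among the fibroblast markers, Pi16 did not pass on the median-centred scale (-0.54). The endothelial marker Tek was called lower too (-1.32). The 4 leukocyte markers summed to 9.53 to 17.1 unnormalised FPKM against 36.9 to 52.9, and they did not move together: Cd14 was lower (-3.49) and Cd68 was higher (2.33, limma, adjusted p = 0.000155), while Ptprc and Lyz2 were at 0 in these 6 libraries.

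Nop56 had the largest difference. It read 73.4, 55.4 and 62.2 with PDGF and 137, 119 and 105 with JQ1 plus PDGF, a rise of 0.91 ± 0.13 (limma, adjusted p = 2.27e-05). The groups at 2 h had read 115, 123 and 143 with PDGF and 116, 123 and 126 with JQ1 plus PDGF. Ddx21 went from 47.1, 49.3 and 57.9 to 103, 79.6 and 91.9, a rise of 0.82 ± 0.14 (limma, adjusted p = 0.000185), and Rrp9 from 34.2, 27.3 and 33.9 to 55.3, 46.0 and 42.7, a rise of 0.58 ± 0.14 (limma, adjusted p = 0.00273). In all 3 genes every JQ1 library was above every PDGF library. Npm1 rose by 0.50 ± 0.11, to 865 ± 78.1 (SD, n = 3), the highest level of any member in any group, and Nolc1 by 0.44 ± 0.13. Called too were 2 small subunit factors, Utp18 (0.40 ± 0.13) and Nop14, from 36.2, 33.2 and 35.6 to 52.3, 42.7 and 43.1 (0.38 ± 0.13, limma, adjusted p = 0.0221), and 1 large subunit factor, Noc2l, from 37.4, 41.7 and 47.3 to 59.5, 52.3 and 50.9 (0.36 ± 0.14, limma, adjusted p = 0.0366). The call of Noc2l was lost under 8 of 22 alternatives, and that of Nop14 without PDGF 24 h library 1 or JQ1 plus PDGF 24 h library 0.

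Polr1c was the member that fell, from 67.5, 46.5 and 50.6 to 41.0, 39.8 and 41.5 (-0.40 ± 0.14, limma, adjusted p = 0.0259). The fall did not pass without PDGF 24 h library 0, the highest, nor without JQ1 plus PDGF 24 h library 1 or 2, and on the median-centred scale the difference was 0.11. The other polymerase I subunits had differences of -0.05 (Polr1a), 0.39 (Polr1b) and 0.43 (Polr1e) that did not pass, while on the median-centred scale these 3 were higher. Of the members called lower with JQ1 at 2 h, Nop2 had 0.35 ± 0.16 at 24 h, Utp20 0.06 ± 0.18, Wdr12 0.04 ± 0.14 and Gar1 -0.23 ± 0.16. None of these differences passed on the normalised scale. On the median-centred scale Nop2 (0.86), Utp20 (0.58) and Wdr12 (0.55) were higher, past the threshold, and Gar1 (0.28) did not pass. Of the 16 members lower with JQ1 at 2 h and the 1 lower at 24 h on the normalised scale, 0 were shared, on comparisons that have no library in common. With 1 call at 24 h, at most 1 could have been shared, so no conclusion is drawn from this overlap. On the median-centred scale 0 were lower at 24 h.

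**Figure D4:**
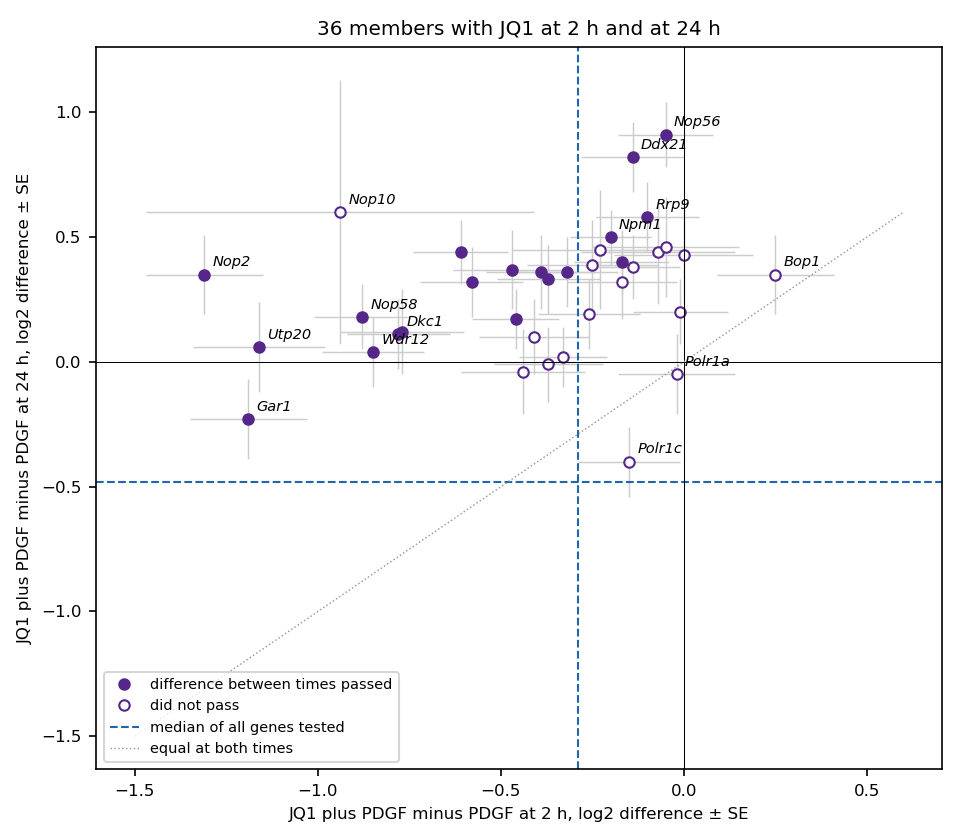
Each point is 1 of the 36 members, with its log2 difference between JQ1 plus PDGF and PDGF at 2 h on the horizontal axis and at 24 h on the vertical axis, error bars of 1 SE, and filled symbols where the difference between the times passed. Nearly all members lie above the dotted line of equality, while the dashed medians of all genes cross at -0.29 and -0.48.

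The change of the JQ1 difference between the times was tested as an interaction. It shares its libraries with the comparisons of 24 h against 2 h, so the fall of members between these times with PDGF alone enters it too. In 19 of 36 members the difference was higher at 24 h than at 2 h (4.82% of all genes tested) and in 0 was it lower (17.5%, limma, with 25 and 0 at an unadjusted p under 0.05), with a median of 0.68 against -0.22 over all genes. Median-centred values gave 29 higher and 0 lower, where 13.5% and 16.4% of all genes were. Nop2 led with 1.65 ± 0.23 (limma, adjusted p = 0.000112), followed by Utp20 at 1.23 ± 0.25, Nop58 at 1.06 ± 0.19 and Nolc1 at 1.05 ± 0.19. On the normalised scale, in 12 of the 19 the difference at 2 h was below 0 and passed, and that at 24 h did not pass: Nop58, Dkc1, Gar1, Gnl3, Utp20, Wdr43, Nat10, Pes1, Wdr12, Wdr74, Nop2 and Nop16. This sorting depends on the scale. Median-centred, all of these 12 but Gar1 were higher at 24 h, past the threshold, and Gnl3, Nat10, Pes1, Wdr74 and Nop16 did not pass at 2 h. In 6 others, Nop56, Ddx21, Rrp9, Npm1, Noc2l and Utp18, the normalised difference at 2 h did not pass and that at 24 h was above 0 and passed. Nolc1 passed at both times, with -0.61 ± 0.13 at 2 h and 0.44 ± 0.13 at 24 h. By role, 3 of 4 box C/D and U3 proteins, 2 of 3 box H/ACA proteins, 4 of 5 abundant nucleolar proteins, 4 of 10 small subunit factors, 6 of 10 large subunit factors and 0 of 4 polymerase I subunits passed. On the median-centred scale these counts were 4, 2, 5, 8, 9 and 1.

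Against unstimulated cells, JQ1 plus PDGF at 2 h had 11 members higher (13.2% of all genes tested) and 6 lower (33.7%), with a median of 0.14. The median-centred counts were 19 and 4, where 25.6% and 27.1% of all genes were. Rrp9 (1.28 ± 0.16), Nop56 (1.14 ± 0.14) and Rrs1 (0.88 ± 0.16) were highest, beside 1.38, 1.19 and 1.14 with PDGF alone. Utp20 (-1.05 ± 0.20), Nop2 (-0.71 ± 0.18) and Nat10 (-0.62 ± 0.17) were lowest, beside 0.11, 0.60 and -0.23. These comparisons share the unstimulated libraries. JQ1 plus PDGF at 24 h had 21 members higher than at 0 h (17.6% of all genes tested) and 0 lower (23.4%, limma, with 25 and 0 at an unadjusted p under 0.05), with a median of 0.51 where the median gene was at -0.07, and 28 and 0 on the median-centred scale (25.1% and 24.8% of all genes). Without unstimulated library 0 the 21 became 10. Rrp9 and Nop56 (1.11 each), Utp18 (1.10) and Ncl (1.02) were highest among those that passed.

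Between 2 h and 24 h of JQ1 plus PDGF, 18 members rose (29% of all genes tested) and 1 fell (17.4%), against 14 and 7 after median-centring (25.3% and 27.4% of all genes). Nat10 (1.47 ± 0.15), Utp20 (1.25 ± 0.18) and Nop2 (1.18 ± 0.16) rose most apart from the variable Nop10 (1.67 ± 0.53), whose lowest library by far was JQ1 plus PDGF 2 h library 1 at 4.51. Rrs1 fell (-0.51 ± 0.14). Nat10 thus had a group mean of 10.8 ± 1.36 (SD, n = 2) at 0 h, 6.68 ± 0.850 with JQ1 plus PDGF at 2 h and 20.3 ± 2.85 at 24 h (SD, n = 3 each), the highest of its 5 groups.

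Over the 5 group means, the members followed each other to different degrees, given here as Pearson's r of a member with the mean of the other members on the log2 normalised scale, over 5 points that share their libraries. Dkc1 (0.91), Nop16 (0.90) and Nolc1 (0.90) were most like the rest. Nob1 (0.32), Polr1a (0.09) and Wdr75 (-0.40) were least like it. The order and one sign depend on the scale: on the median-centred scale Ddx21 (0.97) and Nolc1 (0.96) were most like the rest, Polr1a (0.15), Utp20 (0.18) and Nat10 (0.22) were least like it, and Wdr75 had 0.28. Wdr75 read 38.9 ± 0.394 (SD, n = 2) at 0 h, 25.9 ± 0.970 with PDGF at 2 h and 32.9 ± 3.77 with JQ1 plus PDGF at 24 h (SD, n = 3 each).

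The other genes of the pathway, a list of 124 symbols of which 101 had a value and 99 were tested, moved in the same comparisons as follows. With PDGF at 2 h 27 rose and 4 fell (34 and 6 on the median-centred scale), with a median of 0.28. Of all genes tested 17.7% rose and 12.7% fell (20.4% and 19.4%). Cd3eap, a polymerase I subunit, rose by 1.82 with an SE of 0.16, and Nip7, a large subunit factor, by 1.46 with an SE of 0.15, where the highest member had 1.38. With JQ1 at 2 h 2 rose and 42 fell (6 and 23), with a median of -0.37, led by Ltv1, a small subunit export factor (-1.76), and Ruvbl1, an ATPase of the particle assembly chaperone (-1.44). Here 7.24% of all genes rose and 34% fell (20.1% and 21.5%). With JQ1 at 24 h 15 rose and 8 fell (70 and 2), with a median of 0.03, where 4.61% and 48.5% of all genes did (23.1% and 25.8%). Ltv1 was still lower (-1.04), and Rpf2, a 5S particle factor, was higher (0.80). The interaction was above 0 in 27 and below in 1 (51 and 1), against 4.82% and 17.5% of all genes (13.5% and 16.4%).

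The cytosolic ribosomal protein genes, whose products these factors assemble, were tested as 75 genes. Of these, 6 rose with PDGF at 2 h (median 0.23), 4 fell with JQ1 at 2 h (median -0.21) and 23 fell with JQ1 at 24 h (median -0.33), with 0 called in the other direction each time (limma, 0, 1 and 0 at an unadjusted p under 0.05). Of all genes tested, 17.7%, 34% and 48.5% were called in these directions, and 12.7%, 7.24% and 4.61% in the other. The direction with JQ1 depends on the scale. Median-centred, 5 were higher and 0 lower with PDGF at 2 h (median 0.12), and 12 were higher and 0 lower with JQ1 at 2 h (median 0.15), with 0 lower also at an unadjusted p under 0.05 (limma) in both. Of all genes, 20.4% were higher and 19.4% lower with PDGF at 2 h on that scale, and 20.1% and 21.5% with JQ1 at 2 h. With JQ1 at 24 h 18 were higher and 4 lower on that scale, where 23.1% and 25.8% of all genes were, with a median of 0.17 beside 0.85 for the members. Myc, the transcription factor often linked to these genes, had 56.9 ± 9.73 normalised FPKM (SD, n = 2) at 0 h, 100.9 ± 12.7 with PDGF at 2 h, 105.6 ± 8.14 with JQ1 plus PDGF at 2 h, 38.4 ± 3.07 with PDGF at 24 h and 60.0 ± 8.36 with JQ1 plus PDGF at 24 h (SD, n = 3 each). It was higher with PDGF at 2 h than at 0 h by 0.82, not past the threshold with JQ1 at 2 h (0.07, 95% interval -0.22 to 0.36, and 0.41 past the threshold on the median-centred scale), and higher with JQ1 at 24 h by 0.62. The part of Myc in the members' levels was not tested.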

How the data were processed

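RNA of cultured rat cells was sequenced as 40 base single ends from a stranded polyadenylated library kit with ERCC spike-ins, per the labels' protocols. HISAT, Cufflinks 2.0.0 and build rn6 are named per the submitters' processing notes. An annotation is not given in the sources studied. The authors deposited 2 tables of 17404 features (17312 genes, 92 spike-ins), 1 of unnormalised FPKM and 1 of normalised FPKM. How the authors normalised is not stated, and from the values an FPKM of 0 became about 0.1 and the library medians of spike-ins moved from a range of -0.42 to 0.37 (log2) to one of -0.12 to 0.11. Depth per sample is unknown, so no counting interval is given.

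Columns were grouped by name. They end in digits while sample titles carry letters, so libraries are named by group and digit, and 0 columns lacked a group. Genes that reached a normalised FPKM of 1 in 2 or more libraries were tested, with limma 3.58.1 (R 4.3.3), on log2 of the normalised FPKM plus 1. One model over the 5 groups had 9 residual degrees of freedom and a mean trend, and p-values were Benjamini-Hochberg adjusted over 10133 genes. A pseudocount of 1 understates changes of low genes. For the median-centred scale, unnormalised FPKM were divided by size factors (1.015 to 1.024), and 9980 genes were tested. Alternatives were pseudocounts of 0.1 and 5, no filter, a filter at 5, only the compared groups, no trend and libraries left out. Spearman correlations between libraries of a group, across genes, were 0.945 to 0.989, and 0 library pairs were identical. The code was tested on simulated data. Promoters and pseudogene counts came from RefSeq tables of GRCr8, matched by symbol.

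The members and the other gene lists were chosen with earlier results of these data known. Full values were given for the 3 highest and 3 lowest called members of a comparison, and the other members are named by 1 value. Cd3eap, Nip7, Ltv1, Ruvbl1 and Rpf2 are among the highest or lowest 5 of their list.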

Additional observations from a re-analysis of the deposited data

Results flagged for a closer look

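In 19 members the difference between JQ1 plus PDGF and PDGF alone was higher at 24 h than at 2 h, by limma's test of the difference of differences with Benjamini-Hochberg adjustment over all genes. The values (log2) were 1.65 for Nop2, 1.23 for Utp20, 1.06 for Nop58, 1.05 for Nolc1, 0.97 for Nop56, 0.96 for Gar1, 0.96 for Ddx21, 0.91 for Wdr43, 0.90 for Dkc1, 0.89 for Wdr74, 0.89 for Wdr12, 0.85 for Nop16, 0.75 for Nat10, 0.70 for Npm1, 0.70 for Gnl3, 0.68 for Rrp9, 0.68 for Noc2l, 0.64 for Pes1 and 0.57 for Utp18. Adjusted p-values (limma) ran from 0.000112 for Nop2 to 0.0308 for Utp18. Leaving out libraries ended the call in Utp18 (6 of 14 fits), Nat10, Rrp9 and Noc2l (2 of 14 each). Leaving out both PDGF 2 h library 1 and PDGF 24 h library 0 ended it in Wdr74, Noc2l and Utp18.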

How the results depend on the processing

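Of 18 counts of members over the 9 comparisons, 362 of 396 values under the alternatives stayed within 1.5 times the count reported. Of 49 results on single members, 963 of 1078 values kept direction and side of the threshold, 112 kept the direction only and 3 reversed. Changing the filter, the trend or the groups fitted leaves a difference as it was, as does omitting a library outside the compared groups. In those fits only the p-value could move, so the direction was fixed in advance. The median-centred scale moved the counts most. On it, members lower at 2 h of PDGF against 0 h numbered 2. For PDGF at 24 h against 0 h, 0 were higher and 8 lower, and against 2 h 27 were lower. With JQ1, 3 were higher and 8 lower at 2 h, and 33 higher and 0 lower at 24 h. The interaction was above 0 in 29. JQ1 plus PDGF at 2 h against 0 h had 19 higher, and 24 h against 2 h had 7 lower. The reversals were on this scale too: Dkc1 at 24 h of PDGF against 0 h (-0.05), Fbl with JQ1 at 2 h (0.00) and Polr1c with JQ1 at 24 h (0.11). A reversal here is a change of sign alone, and none of the 3 passed on this scale. These 3 differences follow the all-gene shift between the scales. Without both PDGF 2 h library 1 and PDGF 24 h library 0, 4 members were higher and 0 lower at 24 h of PDGF against 0 h, and 0 were lower with JQ1 at 24 h. A fit to only the compared groups called 14 higher with JQ1 at 24 h. The cause was not tested.

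Leaving out 1 library at a time gave 13 to 21 higher and 0 to 1 lower for PDGF at 2 h against 0 h, 2 to 10 and 0 to 1 for 24 h against 0 h, and 3 to 3 and 12 to 16 for 24 h against 2 h. With JQ1 it gave 0 to 0 higher and 11 to 17 lower at 2 h, 5 to 12 and 0 to 1 at 24 h, and 16 to 22 and 0 to 0 for the interaction. JQ1 plus PDGF against 0 h gave 7 to 12 higher and 3 to 6 lower at 2 h, and 10 to 22 and 0 to 0 at 24 h, and 24 h against 2 h gave 14 to 19 and 1 to 2. The lowest counts of members higher than at 0 h came without unstimulated library 0, and the 3 lower with JQ1 plus PDGF at 2 h against 0 h without unstimulated library 1. No paired analysis was possible because the columns carry digits that match no number or letter in the sample titles. With no depth, low values carry no interval.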
